A study of Mus musculus with 5 samples.

Results

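Distal stretches of chromatin that carried acetylated lysine 27 of histone H3 (H3K27ac) in both tumour genotypes, with no H3K4me3 and no Olig2 peak, made up 11549 of the 89204 histone-marked regions on chromosomes 1 to 19, or 12.9%. They were selected on the deposited peak positions alone, by joining all peaks of the 4 histone lists that overlapped or touched, and keeping each joined region that held an H3K27ac peak of each genotype, no H3K4me3 peak of either, and no overlap with an Olig2 peak. The tumours were gliomas that a PDGFB virus induced in mouse brain, collected 25 days after the injection, on a mixed C57Bl/6;129Sv;CD-1 background. Olig2cKO tumours carried floxed alleles of Olig2, which control tumours did not, and both genotypes share floxed P53 and the virus. The sources used here do not say how Cre reached the cells, which cells were hit or whether tumours were pooled, and nothing in these peak lists was checked against cell type markers, since gene positions on this build were not used here. Chromatin immunoprecipitation with sequencing (ChIP-seq) gave 1 library each for H3K27ac and for H3K4me3 in Olig2cKO and in control tumours, and 1 for Olig2, from control tumours. With 1 library per group, every difference between genotypes is one between 2 libraries, with no replicate check and no test. The Olig2cKO H3K27ac list held 69365 peaks and the control list 56600, and read depth is unknown. "Without Olig2" means that no Olig2 peak was listed there in control tumours.

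H3K27ac is laid down by the acetyltransferases p300 and CBP and marks active promoters and enhancers. H3K4me3, trimethylated lysine 4 of the same histone, sits mainly at active promoters, so acetylated sites without it are usually read as candidate enhancers. Olig2 is a basic helix-loop-helix transcription factor of the oligodendrocyte lineage that binds enhancers and promoters and is widely expressed in gliomas. Among distal regions acetylated in both genotypes, those free of its peaks are the part where no direct contact with Olig2 was listed. Distal regions acetylated in either genotype alone can lack an Olig2 peak too, and are not part of this set.

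Being listed in both genotypes is what chose these regions, so it is no result, and the scores and widths of the same 2 H3K27ac lists are given below as descriptions. H3K27ac of both genotypes was listed at 49.6% of all 89204 regions. The Olig2cKO list put 11771 peaks in the 11549 regions, which is 17.3% of its 67928 peaks on these chromosomes, over 21.0 Mb. The control list put 11804 peaks there, 21.3% of its 55323, over 17.6 Mb. The union of both covered 23.2 Mb. The match was nearly always simple, since 11095 regions (96.1%) held exactly 1 peak of each genotype. Another 202 held more than 1 Olig2cKO peak beside 1 control peak, 233 held 1 Olig2cKO peak beside more than 1 control peak, and 19 held more than 1 of each.

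Among regions acetylated in both genotypes, these had low H3K27ac scores in both libraries. Each peak has a score that the authors' peak caller gave it, and scores of different libraries are not scaled to each other, so ranks are used below. A rank is the percentile of a score among the 40604 regions of any kind with exactly 1 H3K27ac peak of each genotype, taken in each library on its own. This reference includes regions acetylated in both genotypes that carry H3K4me3 and an Olig2 peak. Regions of that kind made up 22.1% of all histone-marked regions, against 12.9% for the present ones, and their ranks are not given apart. Among the 11095 single-pair regions the median rank was 28.6 in Olig2cKO and 26.6 in control tumours, against 50.0 in each by definition over all pairs. The whole lists also hold peaks found in 1 genotype only. Within them the median percentile of these regions was 45.1 in Olig2cKO and 34.3 in control tumours. The median score was 148 in the Olig2cKO list, with a range of 50.0 to 1478, and 116 in the control list, with a range of 50.0 to 1500. Both ranks lay in the lower 50% for 7579 regions (68.3%, 95% interval 67.4 to 69.2), and both lay in the upper 50% for 1061 (9.56%, 9.02 to 10.1). Over all pairs each of these shares was 38.7%. Only 3 of the 11095 regions were in the upper 10% in both genotypes, against 6.44% of all pairs. Intervals cover counting error only, and neighbouring regions are not independent.

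**Figure D1:**
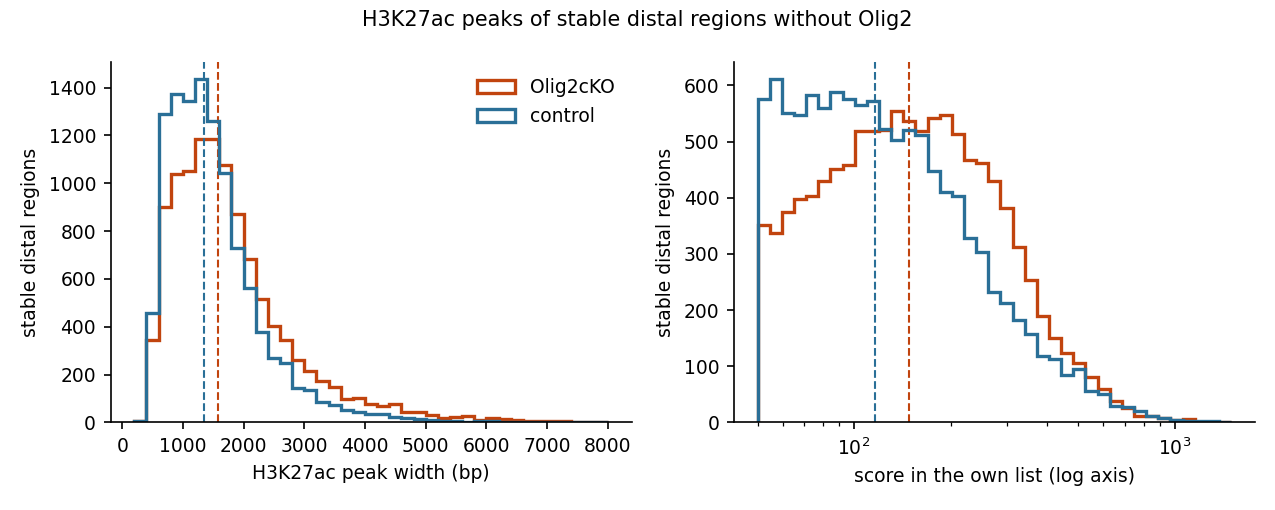
Widths (left, bp) and scores (right, log axis) of the H3K27ac peaks in the 11095 stable distal regions with 1 peak of each genotype, for Olig2cKO and control tumours. Dashed lines are medians, 1571 bp in Olig2cKO against 1346 bp in control and scores of 148 against 116; the scores of the 2 libraries are not scaled to each other.

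The lists end at a score of 50, and some regions stood close to that edge in at least 1 genotype. The counts that follow were made for these regions only, so no share over all pairs stands beside them. Among single pairs the middle 50% of scores began at 92.6 in Olig2cKO and 76.3 in control tumours. Over all pairs it began at 134 in Olig2cKO and 111 in control tumours. The weaker of the 2 scores was under 60 in 1845 of the 11549 regions (15.98%), was 100 or more in 5487 (47.5%), and was 500 or more in 77 (0.667%).

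The 5 regions that stood highest in both genotypes lay at percentiles of 92.5 to 97.3 of the Olig2cKO list and 92.8 to 97.5 of the control list. The first, on chromosome 9 from 123741307 to 123743926 (mm9), had a score of 820 in Olig2cKO and 1044 in control tumours. The second, on chromosome 3 from 95310990 to 95313943, had 809 in Olig2cKO and 1289 in control tumours. The third, on chromosome 9 from 96871704 to 96874369, had 910 in Olig2cKO and 897 in control tumours. The other 2 lay on chromosome 17 from 26807319 to 26810111, with 1130 in Olig2cKO and 878 in control tumours, and on chromosome 5 from 97682754 to 97685401, with 758 in Olig2cKO and 1118 in control tumours. All 5 were single peaks of 1988 to 2898 bp in Olig2cKO and 2073 to 2666 bp in control tumours. Their nearest Olig2 peaks were 3315 to 72135 bp away and their nearest H3K4me3 peaks 2546 to 21244 bp away.

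The acetylated stretch was wider in the Olig2cKO list. Median peak width was 1571 bp in Olig2cKO (middle 50% of regions 1097 to 2192) and 1346 bp in control tumours (947 to 1826). The median of the difference within a region, Olig2cKO minus control, was 179 bp, with a 95% interval of 167 to 193. Its middle 50% ran from -159 to 651 bp, so the direction varied from region to region. The Olig2cKO peak was the wider one in 7043 of 11095 regions (63.5%, 62.6 to 64.4), and over all 40604 pairs it was the wider one in 57.7%, with a median difference of 84 bp. It was at least 1.5-fold wider in 2936 regions (26.5%, 25.6 to 27.3), against a background of 17.9%. It was at least 1.5-fold narrower in 1079 (9.73%, 9.18 to 10.3), against a background of 9.39%. On single chromosomes 59.8 to 67.5% of these regions were wider in Olig2cKO, against 56.5 to 61.5% of all pairs. With the upper 50% of all 5 lists by score, where other regions enter because weak Olig2 and H3K4me3 peaks drop out too, the median difference was 58 bp and 54.5% were wider in Olig2cKO. Library depth, which can move peak width, is unknown and its part was not tested.

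The control peak lay wholly inside the Olig2cKO peak in 4871 regions (43.9%), the Olig2cKO peak lay inside the control peak in 2377 (21.4%), and the edges were staggered in 3847 (34.7%). Over all pairs these shares were 37.5% for the control peak inside, 26.0% for the Olig2cKO peak inside and 36.5% for staggered edges. The stretch covered by both genotypes was at the median 70.9% of the region, and it was at least 50% of the region in 8907 regions (80.3%, 79.5 to 81.0). The middles of the 2 peaks were 135 bp apart at the median. Over all pairs the median overlap was 71.8%, with an overlap of at least 50% in 80.3% and middles 117 bp apart. Regions there can also span H3K4me3 peaks, so their overlap is not measured alike. In distal regions acetylated in both genotypes with an Olig2 peak, the like measures were 76.7%, 88.0% and 106.5 bp. In strength the 2 libraries followed each other only loosely. Across the 11095 regions Spearman's rho was 0.41 for scores and 0.56 for widths, against 0.71 and 0.73 over all 40604 pairs, whose scores span a wider range.

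**Figure D2:**
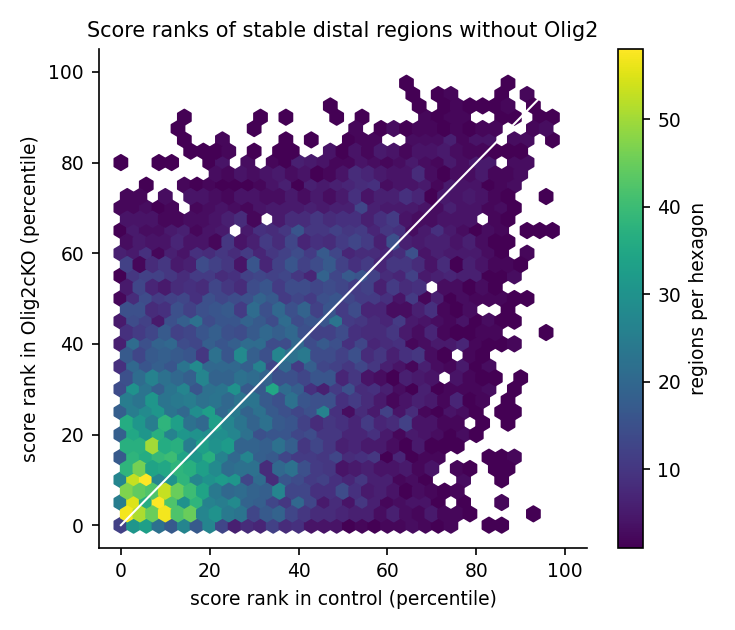
Rank of the H3K27ac score in Olig2cKO (y axis) against control tumours (x axis), in percentiles of all 40604 single-pair regions, for the 11095 stable distal regions without Olig2; colour is the number of regions per hexagon and the line marks equal rank. Most regions lie below rank 50 in both genotypes, and the cloud is broad (Spearman's rho 0.41).

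Although listed in both genotypes, 2852 regions (25.7%, 24.9 to 26.5) differed in rank by 25 points or more. Of these, 1577 (14.2%) ranked higher in Olig2cKO and 1275 (11.5%) ranked lower. Over all pairs the shares were 11.4% and 11.6%. "Stable" here says that a peak was listed in each genotype, not that acetylation was equal.

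The 5 regions whose percentile in the Olig2cKO list stood most above that in the control list had strong Olig2cKO peaks and control peaks at the edge of listing. The first, on chromosome 7 from 4061596 to 4065917, had a score of 571 and a width of 4322 bp in Olig2cKO, against 51.0 and 760 bp in control tumours. On chromosome 12 from 99932426 to 99934118 the scores were 417 in Olig2cKO and 50.3 in control tumours, and on chromosome 17 from 46901217 to 46903013 they were 441 in Olig2cKO and 52.1 in control tumours. The other 2, on chromosome 8 from 119075769 to 119077089 and on chromosome 1 from 192741923 to 192743695, had 396 and 433 in Olig2cKO, against 50.8 and 54.3 in control tumours. In each of the 5 the control peak lay within a wider Olig2cKO peak, 2.93 to 5.69 times its width.

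The 5 regions whose percentile in the Olig2cKO list stood most below that in the control list had Olig2cKO peaks near the edge of listing and strong control peaks. The first, on chromosome 5 from 63314900 to 63317714, had a score of 58.9 and a width of 622 bp in Olig2cKO, against 984 and 2815 bp in control tumours. On chromosome 16 from 26184108 to 26186158 the scores were 52.9 in Olig2cKO and 714 in control tumours, and on chromosome 17 from 40200729 to 40202731 they were 54.3 in Olig2cKO and 612 in control tumours. The remaining 2 lay on chromosome 5, from 110763147 to 110764779 with 50.6 in Olig2cKO and 451 in control tumours, and from 115202696 to 115205171 with 51.7 in Olig2cKO and 460 in control tumours. The weaker score of these 10 regions was 50.3 to 58.9, close to the lowest that either list holds.

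The extremes of width were weak in the genotype with the narrow peak. The 5 largest ratios of width, Olig2cKO over control, were 6.75 to 7.95, with scores of 67.4 to 197 in Olig2cKO and 52.3 to 65.8 in control tumours. The first of these, on chromosome 4 from 84979305 to 84984132, was 4828 bp wide with a score of 67.4 in Olig2cKO, against 607 bp with a score of 65.8 in control tumours. The 5 smallest were 0.152 to 0.201, with scores of 52.6 to 81.2 in Olig2cKO and 206 to 497 in control tumours. The smallest of all, on chromosome 13 from 9936457 to 9940828, was 665 bp wide with a score of 55.3 in Olig2cKO, against 4372 bp with a score of 497 in control tumours. The widest region, on chromosome 2 from 177938149 to 177950717, spanned 12569 bp with 2 peaks of each genotype and top scores of 332 in Olig2cKO and 272 in control tumours. The next 4 by width, 7403 to 7917 bp, lay on chromosomes 2, 15, 19 and 11 and had scores of 52.2 to 143 in Olig2cKO and 103 to 186 in control tumours. Score did not keep rising with width. Among regions with a mean width of 2 to 3 kb (1934 regions) the median score was 207 in Olig2cKO and 159 in control tumours, and among the 226 regions of 4 kb or more it was 153 in Olig2cKO and 143 in control tumours. In the 2123 regions under 1 kb it was 87.1 in Olig2cKO and 75.9 in control tumours.

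The nearest relatives of these regions are the 5035 distal regions acetylated in both genotypes that do overlap an Olig2 peak. The regions without Olig2 were weaker, with the median rank of 28.6 in Olig2cKO and 26.6 in control tumours, against 46.4 in Olig2cKO and 52.0 in control tumours for the 4906 single pairs with an Olig2 peak. The direction of the shift in rank differed as well. Ranks are taken over the same pairs in each library, so shifts cancel over all pairs. A rise in some kinds thus comes with a fall in others, and opposite directions are in part set by the measure. The median shift in rank, Olig2cKO minus control, was 1.74 points without an Olig2 peak (95% interval 1.27 to 2.17) and -3.48 points with one (-4.38 to -2.77). Of the regions without an Olig2 peak, 5926 (53.4%, 52.5 to 54.3) ranked higher in Olig2cKO. Of those with one, 2123 (43.3%, 41.9 to 44.7) did so, and over all pairs 49.9% did. With the upper 50% of all 5 lists the median shifts were 0.50 points without an Olig2 peak (-0.17 to 1.33) and -0.34 with one (-0.89 to 0.11). These shifts are small beside their spread, whose middle 50% ran from -12.0 to 15.9 points without an Olig2 peak and from -20.1 to 11.1 points with one. Olig2 was mapped in control tumours alone, so the choice of regions by its peaks and an effect of the genotype cannot be told apart here.

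Width gave the same order. The Olig2cKO peak was wider in 63.5% of the regions without an Olig2 peak, as given above, and in 54.6% (53.2 to 56.0) of those with one, where the median difference was 53.5 bp. In 4 width classes that each held about 25% of the regions without Olig2, the share wider in Olig2cKO was 53.1, 62.0, 64.9 and 74.0% from narrow to wide. With an Olig2 peak it was 50.4, 55.7, 51.3 and 58.2% in the same classes. The classes were set by the mean width of both genotypes, which holds the Olig2cKO width. Part of the rise from narrow to wide may therefore be built in, which was not tested. The intervals of the narrowest class overlapped, and those of the other 3 classes did not. With the upper 50% of all 5 lists, 54.5% of the regions without an Olig2 peak and 54.6% of those with one were wider in Olig2cKO. In 4 classes of mean rank built in the same way, 51.2, 52.4, 55.1 and 55.0% of the regions without an Olig2 peak ranked higher in Olig2cKO from weak to strong, against 47.6, 44.3, 43.5 and 42.3% with one. The intervals overlapped in the weakest class alone.

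Acetylated regions that carry H3K4me3 but no Olig2 peak were near the distal ones without Olig2 in some measures and apart in others. Among 7387 single pairs of that kind, 62.1% (60.96 to 63.2) were wider in Olig2cKO and 54.6% (53.4 to 55.7) ranked higher there, with a median shift of 1.96 points, and the intervals of both shares overlapped those of the distal regions. Their median width difference was smaller, at 132 bp (119 to 145) against the 179 bp given above, and 20.6% (19.7 to 21.6) were at least 1.5-fold wider in Olig2cKO, against 26.5% of the distal regions. The regions with H3K4me3 were stronger, with a median rank of 44.9 in Olig2cKO and 41.9 in control tumours. In the widest class the share wider in Olig2cKO was 74.0% (72.3 to 75.6) for the distal regions and 68.1% (66.2 to 69.9) for those with H3K4me3. Both kinds share the absence of an Olig2 peak and all come from the same pair of H3K27ac libraries. No test of these differences was made.

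**Figure D3:**
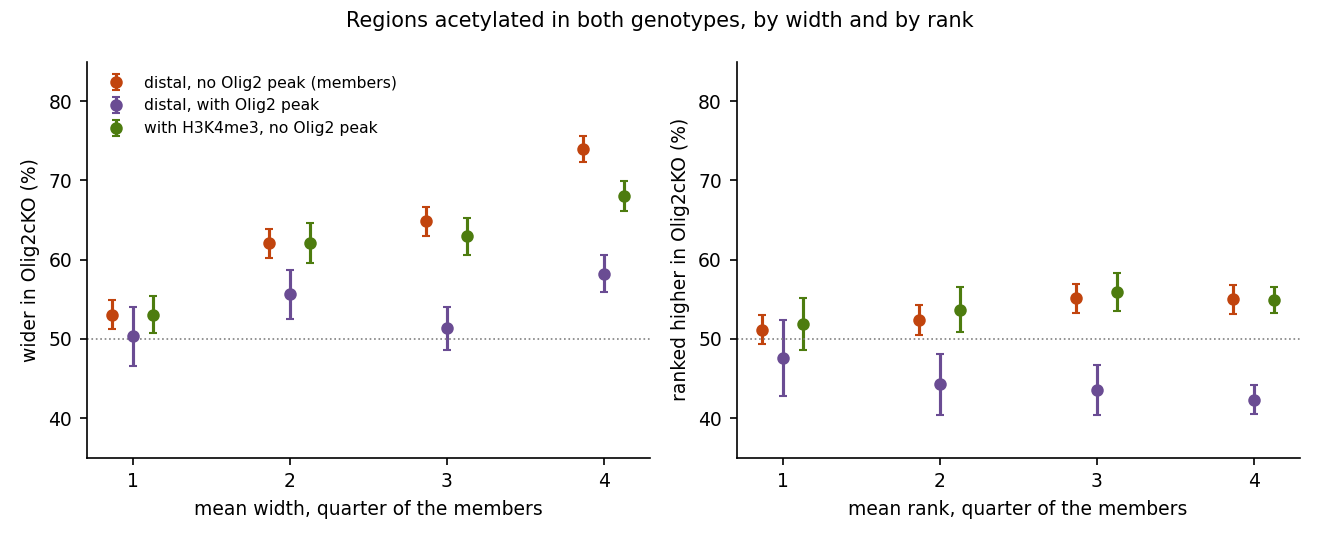
Share of single-pair regions whose Olig2cKO peak is wider (left) or ranks higher (right) than the control peak, in 4 classes of mean width or mean rank that each hold about 25% of the distal regions without Olig2; points are shares and bars 95% exact binomial intervals. Distal regions without an Olig2 peak reach 74.0% in the widest class, against 58.2% with one, and the rank shares of the 2 kinds lie on opposite sides of 50%.

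Of the 31691 distal regions without Olig2 acetylated in either genotype, 36.4% (35.9 to 37.0) were listed in both, and with an Olig2 peak 66.7% (65.6 to 67.8) of 7548 were. Of the 25776 without Olig2 that had an Olig2cKO peak, 44.8% (44.2 to 45.4) also had a control peak, and of the 17464 that had a control peak, 66.1% (65.4 to 66.8) also had an Olig2cKO peak. With an Olig2 peak the last 2 shares were 79.1% (78.1 to 80.1) of 6363 and 80.9% (79.95 to 81.9) of 6220. The shares depended strongly on score. Along the deciles of the Olig2cKO list, from weak to strong, the share also listed in control tumours climbed from 19.8 to 92.5% without an Olig2 peak and from 45.7 to 97.4% with one. Along the deciles of the control list, the share also listed in Olig2cKO climbed from 47.8 to 98.1% without an Olig2 peak and from 56.1 to 98.8% with one. In the Olig2cKO list the intervals of regions without and with an Olig2 peak were apart in each of the first 9 deciles. In its decile 5, 53.1% (51.3 to 54.9) of the regions without an Olig2 peak and 80.9% (77.7 to 83.7) of those with one were listed in control tumours. In the control list the gap was smaller in deciles 1 to 7, and the intervals overlapped in deciles 2, 3, 5, 6 and 10. In its decile 5, 78.0% (76.2 to 79.8) of the regions without an Olig2 peak and 77.0% (73.8 to 80.0) of those with one were listed in Olig2cKO, and in decile 7 81.9% (79.6 to 84.1) without and 89.9% (87.6 to 91.9) with one. Here too the Olig2 peaks come from control tumours, and the part this plays in the gap was not tested.

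**Figure D4:**
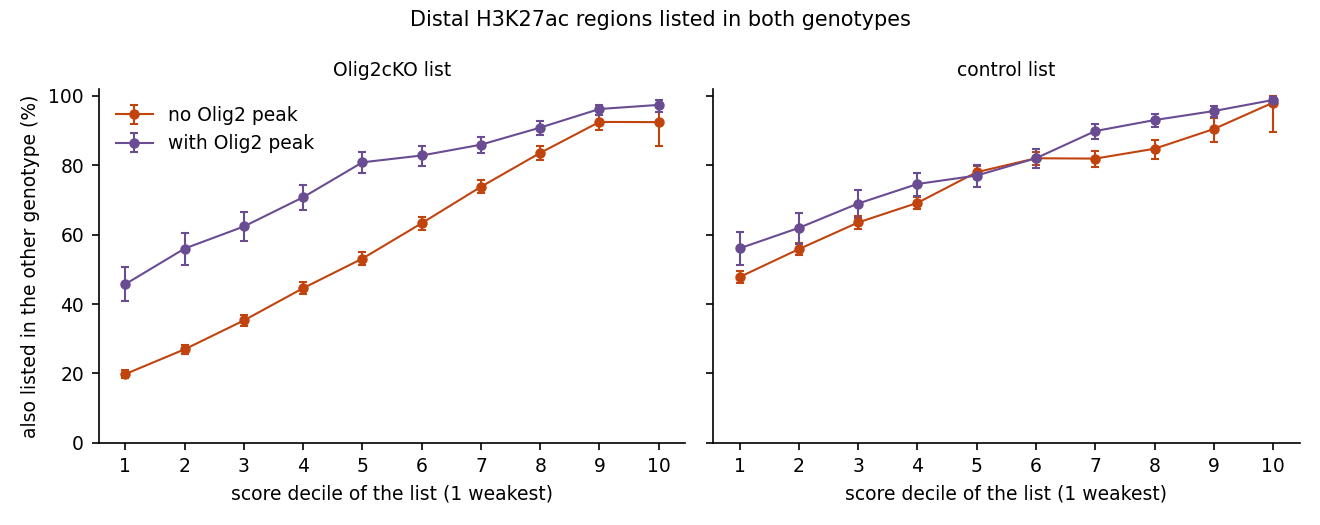
Share of distal H3K27ac regions of the Olig2cKO list (left) and of the control list (right) that are also listed in the other genotype, by score decile of the list, without and with an Olig2 peak; bars are 95% exact binomial intervals. In decile 5 of the Olig2cKO list the shares are 53.1% without and 80.9% with an Olig2 peak, and in that of the control list 78.0% without and 77.0% with one.

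The median distance of the stable regions without Olig2 was 14432 bp to the nearest Olig2 peak (95% interval 14078 to 14787) and 12564 bp to the nearest H3K4me3 peak (12269 to 12906). An Olig2 peak lay within 1 kb of 202 regions (1.75%), within 10 kb of 4240 (36.7%, 35.8 to 37.6) and within 100 kb of 10977 (95.0%). H3K4me3 lay within 1 kb of 375 regions (3.25%), within 10 kb of 4883 (42.3%, 41.4 to 43.2) and within 100 kb of 11188 (96.9%). Neither was listed within 10 kb of 5482 regions (47.5%, 46.6 to 48.4), and neither within 100 kb of 195 (1.69%). These shares with neither were counted for the stable regions only. Distal regions listed in Olig2cKO alone lay farther off, at medians of 17844 bp from Olig2 (17407 to 18340) and 15007 bp from H3K4me3 (14667 to 15381). Those listed in control tumours alone lay at medians of 15160 bp (14671 to 15764) and 12742 bp (12228 to 13275), with intervals that overlapped those of the stable ones. An Olig2 peak lay within 10 kb of 31.6% of the regions of Olig2cKO alone and 36.1% of those of control alone. H3K4me3 lay within 10 kb of 36.4% of the regions of Olig2cKO alone and 42.1% of those of control alone. These distances depend on the lists: with the upper 50% of all 5 lists by score the medians of the stable regions were 25326 bp to Olig2 and 24138 bp to H3K4me3.

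**Figure D5:**
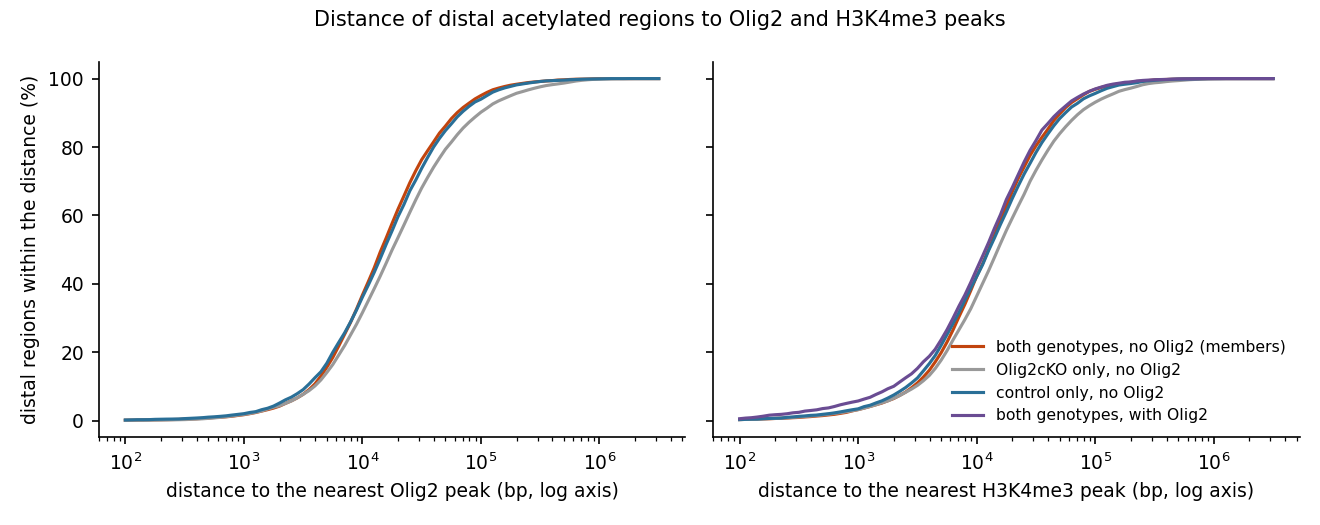
Cumulative share of distal acetylated regions within a given distance (bp, log axis) of the nearest Olig2 peak (left) and H3K4me3 peak (right), for regions of both genotypes without Olig2, of Olig2cKO alone, of control alone, and of both genotypes with Olig2 (right panel only). The stable regions without Olig2 have medians of 14432 bp to Olig2 and 12564 bp to H3K4me3, and those of Olig2cKO alone lie farther away.

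Among the stable regions without Olig2, rank shifted more toward Olig2cKO in those far from any Olig2 peak. The share ranked higher in Olig2cKO was 51.8% (44.6 to 58.9) of the 197 single-pair regions within 1 kb of an Olig2 peak and 51.1% (49.5 to 52.7) of the 3925 at 1 to 10 kb. It was 54.2% (53.0 to 55.4) of the 6446 at 10 to 100 kb and 61.3% (56.98 to 65.5) of the 527 beyond 100 kb. The median shift at these distances was 0.92, 0.69, 2.11 and 5.56 points. The share wider in Olig2cKO was 60.9, 62.8, 63.5 and 69.1% at the same distances. Distance to H3K4me3 moved in parallel for rank, with 51.9, 51.7, 54.5 and 57.8% ranked higher in Olig2cKO, but not for width, with 64.2, 63.1, 63.9 and 60.7% wider there. Both distances were measured on the same regions, and their separate parts were not tested. The shifts by distance were not computed over all pairs or for other kinds, so they are not shown to be particular to these regions.

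The edges of the rule held few regions. Within 100 bp of an Olig2 peak lay 16 stable regions, and 5 distal regions missed the rule by an overlap of at most 100 bp with one. The nearest inside, on chromosome 11 from 106280442 to 106281950, lay 2 bp from an Olig2 peak, with scores of 303 in Olig2cKO and 211 in control tumours. The next 2 lay 3 and 15 bp away. The nearest outside, on chromosome 4 from 151585500 to 151587991, overlapped an Olig2 peak by 18 bp, with scores of 93.04 in Olig2cKO and 72.6 in control tumours, and the next 2 by 46 and 65 bp. Toward H3K4me3, 38 stable regions lay within 100 bp of a peak, the nearest 3 at 4, 6 and 8 bp. Outside, 8 regions without Olig2 overlapped H3K4me3 by at most 100 bp of their H3K27ac peaks, the least of them by 6, 28 and 35 bp.

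The stable regions lay on all 19 chromosomes. Their density was 4.67 per Mb overall and 3.83 to 6.06 per Mb on single chromosomes, lowest on chromosome 3 and highest on chromosome 11. They were 10.996 to 14.2% of all histone-marked regions of a chromosome, and 33.2 to 38.8% of its distal regions without Olig2. Of 2482 windows of 1 Mb, 2015 (81.2%) held at least 1, with a median of 5 in those. The fullest window, on chromosome 2 from 166000001 to 167000000, held 22, beside 7 distal regions of Olig2cKO alone and 6 of control alone without Olig2, and 8 stable distal ones with Olig2.

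Most stood alone among stable regions, while the nearest histone-marked region of any kind lay at a median distance of 5834 bp. Neighbouring stable regions were counted as 1 group across the gap commonly used to stitch enhancers. The widest gap joined was 12494 bp, with a median of 6949 bp. The count depends on how densely regions lie. It was not made for other kinds of region, so standing alone is not shown to be particular to these. By this count, 8882 of the 11549 (76.9%) had no other stable region in reach, 2114 (18.3%) came in pairs, and 553 (4.79%, 4.41 to 5.19) formed 174 groups of 3 or more. That share depends on the lists and the gap, and was 1.56% with the upper 50% of all 5 lists, 0.142% with the upper 50% of the H3K27ac lists alone and 0.286% with gaps of up to 5 kb. The largest group, on chromosome 8 from 47865816 to 47915387, held 6 regions over 49.6 kb, with scores of 84.7 to 287 in Olig2cKO and 66.2 to 200 in control tumours. It contained 1 further region, acetylated in Olig2cKO alone, and no other. Another 5 groups held 5 regions each, and the 4 longest of them, of 32.0 to 42.8 kb, were chr4:144789653-144832465, chr3:95497358-95537527, chr8:73804981-73837854 and chr13:114611306-114643258. The group on chromosome 3 contained 1 region with Olig2 and H3K4me3, and the other 3 contained no further histone-marked region. The region closest to a stable one, of any kind, was another stable one in 16.6% of cases (15.95 to 17.3), against 12.9% of all regions. It was a distal region of Olig2cKO alone in 19.3% (against 15.9% of all regions), and a region with H3K4me3 and Olig2 acetylated in both genotypes in 19.8% (against 22.1%). A raised share of the own kind was not particular to stable regions. The closest region was of the own kind in 25.8% of distal regions of Olig2cKO alone (against 15.9%). It was so in 9.79% of those of control alone (against 6.63%), and in 7.55% of stable distal ones with Olig2 (against 5.64%).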

How the data were processed

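H3K27ac, H3K4me3 and Olig2 were profiled by ChIP-seq in PDGFB-induced mouse gliomas, with 1 library per group. CASAVA, Bowtie2 and MACS, with mouse build mm9, are named per the submitters' processing notes; versions, settings and input libraries are not given in the sources used here. The authors deposited 1 peak list per library, giving each peak its position and its score. The lowest scores were 50.00 to 50.02, and 50 stands for a p-value of 1e-05 on the scale MACS often writes, though the labels do not name the scale. Read depth is unknown, and 1 list is not scaled to another.

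Regions, overlaps and distances were computed in Python 3.11.15 (numpy 2.4.6, pandas 2.3.3), and figures drawn with matplotlib 3.10.9. Region and membership counts were checked with bedtools 2.31.1 and were identical. The number of regions in each of 5 classes was recovered for 6000 simulated regions. These lay apart, with at most 1 peak per list, and were built from the peaks that define their class. This checked the code on simple cases only. Chromosome lengths of mm9 came from GenomeInfoDb 1.38.1. Shares carry exact Clopper-Pearson intervals and medians exact order-statistic intervals, at 95% (scipy 1.17.1). Nothing was tested, since each group has 1 library. The planned work on base composition, motifs and neighbouring genes was not run, since an mm9 genome and gene positions were not used here. Positions count from 1. The genotypes are not reported in full here.

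Named regions follow a rule: the 5 highest by the lower of the percentiles in both lists, the 5 extremes of percentile difference and of width ratio each way, the 5 widest, the 5 fullest groups and the 3 nearest each edge of the selection. The fullest window was named outside this rule, after its values were seen. The regions and measures were chosen with earlier results of these data known.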

Additional observations from a re-analysis of the deposited data

How the results depend on the processing

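The number of regions, the distances, the width difference, the shares wider in Olig2cKO, the rho of scores, the rank shifts, the share listed in both genotypes and the share in groups were recomputed with other settings, and other values were not. Of 74 recomputed values, 39 stayed within 1.5 times (the number of regions) or within the 95% interval of the reported one. None of the recomputed values changed sign. No paired analysis was possible because each group has 1 library. The number of stable distal regions without Olig2 fell to 6045 with the upper 50% of all 5 lists by score and to 2118 with the upper 50% of the H3K27ac lists alone. With the first of these settings the median width difference was 58.0 bp, the share wider in Olig2cKO 54.5%, the median distance 25326 bp to Olig2 and 24138 bp to H3K4me3, and 1.56% of regions lay in groups of 3 or more. With the second the width difference was 74.0 bp, the share wider 55.6%, Spearman's rho of scores 0.28, the share of distal regions without Olig2 listed in both genotypes 24.9%, and the share in groups 0.142%. With lists of equal length the width difference was 246.5 bp, the share wider 68.2%, the share listed in both 38.5%, the share in groups 3.35% and the distance to H3K4me3 13335 bp. With peaks joined across 1 kb the share listed in both was 38.4%, the share in groups 4.26%, and the distances 15062 bp to Olig2 and 13238.5 bp to H3K4me3. Joined at 50% overlap, the share listed in both was 35.8%. At least 1 kb from both kinds of peak the distances were 14966.5 bp to Olig2 and 13155.5 bp to H3K4me3, and at least 5 kb away 18486 and 16573 bp, which that setting forces upward, with 3.51% in groups. A grouping distance of 5 kb left 0.286% in groups.

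The rank shifts and the regions with Olig2 were recomputed in alternatives added after the data were seen. The median shift of the regions without Olig2 was 0.50 points with the upper 50% of all lists (interval -0.17 to 1.33), 2.31 with the upper 50% of the H3K27ac lists, 2.25 with equal lists and 1.18 when joined across 1 kb. That of distal regions with Olig2 was -0.34 with the upper 50% of all lists (interval -0.89 to 0.11). With that setting both intervals include 0. Their share wider in Olig2cKO was 51.1% with the upper 50% of the H3K27ac lists and 57.3% with equal lists. With the upper 50% of all lists the shares wider in Olig2cKO were 54.5% without and 54.6% with an Olig2 peak, so the difference in width between these kinds was not seen there. That setting also drops weak H3K4me3 and Olig2 peaks, so other regions enter. Unknown depth limits every comparison of widths and list lengths.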

Other observations

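Chromosome X, left out of the choice of regions, held 191 regions that meet the same terms, 9.77% of its 1955 histone-marked regions and below the range of 10.996 to 14.2% on the numbered chromosomes. They were 34.4% of its 555 distal regions without Olig2, inside the range of 33.2 to 38.8% on the numbered chromosomes. The widths lay outside the range of those chromosomes as well. The Olig2cKO peak was the wider one in 97 of 190 single pairs on X (51.1%, 43.7 to 58.4), with a median difference of 18 bp, while the numbered chromosomes ranged from 59.8 to 67.5%, with medians of 124.5 to 321 bp. Over all 832 single pairs on X, of any kind, 48.7% (45.2 to 52.1) were wider in Olig2cKO, against 56.5 to 61.5% on the numbered chromosomes. The Olig2cKO H3K27ac list held 1388 peaks on X against 1227 in control tumours, 13.1% more, and 22.8% more on chromosomes 1 to 19. The sources used here do not state the sex of the animals, and the cause was not tested.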
